A study of Mus musculus with 6 samples.

Results

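In droplet sequencing of spinal cord cells, 1394 of 21919 cell barcodes carried at least 200 detected genes and more than 20% of their unique molecular identifiers (UMIs) on mitochondrially encoded genes, those whose symbols begin with mt-. They were selected on this measured share and on the number of genes, and are called high-mitochondrial barcodes or members here. Of the 4754 barcodes with at least 200 genes, the other 3360 had 20% or less and served as the low-mitochondrial barcodes of the same library. A share of mitochondrial RNA above such a limit is a usual reason to discard a barcode. The label names a measured property and no cell type, and the marker genes described below did not point to a single cell type.

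The 6 Drop-seq libraries came from mouse spinal cord, 2 in each of 3 groups. The SOD1-Nec group carried the SOD1-G93A genotype, a mutant superoxide dismutase 1 used to model amyotrophic lateral sclerosis, and was treated with Necrostatin-1s, which blocks the necroptosis kinase RIPK1. The SOD1-Veh group carried the same genotype and was given vehicle. The WT-Veh group was wild type with vehicle. Every group went through Accutase digestion, removal of myelin and isolation of live cells on a gradient of OptiPrep and Hibernate A. The labels give no age, sex, transgenic line or promoter, and do not say whether libraries of a group came from separate mice, so p-values measure the spread between libraries, which may be technical.

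Mitochondria carry their own small genome, which encodes the ribosomal RNAs of the mitochondrial ribosome and a few subunits of the respiratory chain. All other respiratory subunits, the import machinery and the quality control of mitochondria are encoded in the nucleus. A high mitochondrial share is widely read as a mark of cells that have lost cytoplasmic RNA through a broken membrane, and it is also high in cells and cell processes rich in mitochondria, such as neurites and astrocyte processes. Droplets that caught free RNA or cell fragments add to the same reading.

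The libraries held 1508618 to 1767205 UMIs each, of which high-mitochondrial barcodes took 6.58% to 12.1%, and 14.004% to 24.1% of the mitochondrial UMIs. Summed nuclear UMIs per library, over the 17042 genes common to all tables without the mitochondrial ones, ran from 79054 to 134776 in high-mitochondrial barcodes and from 413231 to 614878 in low-mitochondrial ones. A member had a median of 493 UMIs, 338 of them nuclear, and 250.5 genes, against 600 UMIs, 546 of them nuclear, and 320 genes in low-mitochondrial barcodes. Of the barcode sequences among members, 5 occurred in more than 1 library. Some libraries stood apart in what they held: 174 of the 294 barcodes later called neuron-like came from WT-Veh 2, and barcodes called skeletal muscle-like numbered 0 and 0 in SOD1-Nec, 17 and 57 in SOD1-Veh and 0 and 1 in WT-Veh. Sod1 checked the genotype labels within the members: it had 4635 and 5271 normalised CPM (counts-per-million of nuclear UMIs) in SOD1-Nec, 5916 and 8070.1 CPM in SOD1-Veh and 654 and 605 CPM in WT-Veh. The tables do not separate reads of a transgene from those of the mouse gene.

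The mitochondrial values chose the members and are given as a description. The median mitochondrial share was 30.02% in members, with the middle 50% of barcodes between 25.5% and 35.5% and a highest value of 56.7%, against a median of 6.84% in low-mitochondrial barcodes. By range, 694 members lay between 20% and 30%, 565 between 30% and 40%, and 135 above 40%, of which 6 exceeded 50%. Just inside the limit, 122 members lay between 20% and 22%. Just outside it, 114 low-mitochondrial barcodes lay between 18% and 20%. Below the gene limit, the median mitochondrial share over all libraries was 28.2% in barcodes with at least 100 but under 200 genes, and 30.8% in those with fewer than 100 genes, where it ran from 7.09% to 40.9% by library. As a share of summed UMIs the values were 21.0% and 17.4%, against 31.5% in members.

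Among the mitochondrial UMIs of members, the large ribosomal RNA mt-Rnr2 made up 46.0%, against 59.8% in low-mitochondrial barcodes. The small ribosomal RNA mt-Rnr1 made up 11.5% against 9.37%. The messenger RNAs thus held a larger part of the mitochondrial UMIs in members. The complex III subunit mt-Cytb was 9.43% against 7.64%, the complex I subunits mt-Nd1 7.82% against 6.09% and mt-Nd4 5.77% against 4.27%, and the complex IV subunit mt-Co1 4.05% against 3.00%. mt-Co2, mt-Co3 and mt-Atp6 had 4, 0 and 4 UMIs over all members and 1, 0 and 0 over low-mitochondrial barcodes, so these mitochondrial messages were nearly absent from the tables on both sides. Both ribosomal RNAs together were 57.4% of mitochondrial UMIs in members, 69.2% in low-mitochondrial barcodes and 78.0% in barcodes with fewer than 100 genes.

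Members were 25.1% (exact Clopper-Pearson 95% interval 22.3% to 28.1%) and 19.1% (16.6% to 21.7%) of the barcodes with at least 200 genes in the SOD1-Nec libraries. They were 40.9% (37.2% to 44.7%) and 33.3% (29.7% to 37.0%) in SOD1-Veh, and 31.3% (28.0% to 34.8%) and 31.6% (28.4% to 34.9%) in WT-Veh. The intervals cover counting error only. Both SOD1-Nec libraries were below every other library, and both SOD1-Veh libraries were above both WT-Veh libraries. The mean share was 37.1% ± 5.38 in SOD1-Veh and 31.5% ± 0.192 in WT-Veh (SD, n = 2 each), a difference of 5.62 percentage points, for which the two-sided exact permutation test gave p = 0.333. The mean was 22.1% ± 4.30 in SOD1-Nec, below SOD1-Veh by the larger margin (difference -14.98 percentage points, exact permutation p = 0.333). With 2 libraries against 2, 0.333 is the smallest p the test can give, so neither difference could pass a threshold. Among barcodes with at least 400 genes the first difference turned round, to -6.10 percentage points, and the second was -2.01 percentage points (exact permutation p = 0.667). With the limit at 10% the second was -4.87 percentage points (exact permutation p = 0.667), and with at least 100 genes it was -35.2. At the 10% limit the order of the groups was not kept, with 55.4% and 46.3% in SOD1-Nec, 56.4% and 54.96% in SOD1-Veh and 45.6% and 44.3% in WT-Veh. Among barcodes with fewer than 100 genes the groups stood in the order seen at 200 genes, where the median mitochondrial share was 10.7% and 7.09% in SOD1-Nec, 39.1% and 40.9% in SOD1-Veh, and 29.7% and 29.3% in WT-Veh.

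**Figure D1:**
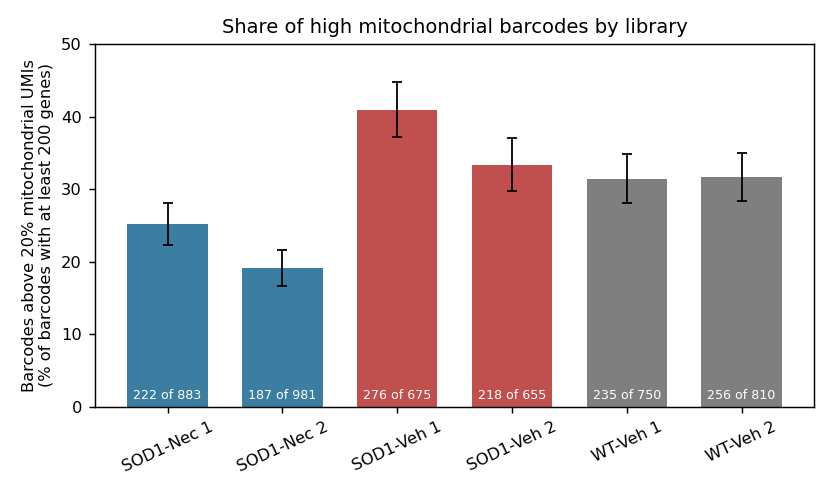
Bars give, for each library, the percentage of barcodes with at least 200 genes that had more than 20% mitochondrial UMIs. Whiskers are exact 95% binomial intervals and the white numbers count the barcodes. The SOD1-Nec libraries stand at 25.1% and 19.1%, the SOD1-Veh libraries at 40.9% and 33.3%, and the WT-Veh libraries at 31.3% and 31.6%.

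Across the range of mitochondrial share, the make-up of the nuclear RNA changed with it. Values here are plain CPM of nuclear UMIs, without TMM scaling, summed over the 6 libraries, in 9 ranges of mitochondrial share: 0 to 5%, 5 to 10%, 10 to 15%, 15 to 20%, then 20 to 25%, 25 to 30%, 30 to 35%, 35 to 40% and above 40%. They are a description with no test, and ranges on the 2 sides of the 20% limit differ in their number of barcodes. Haemoglobin transcripts, which mark red blood cells, made up 193600, 80759, 67451 and 61632 in the ranges below the limit, and 22488, 11447, 10949, 13048 and 10142 above it. Immediate-early genes, which cells switch on within minutes of stress or dissociation, stood at 15127, 18581, 11069 and 7636 below the limit and 3163, 1699, 733, 694 and 836 above it. Microglia markers stood at 7243, 10121, 6782 and 4695 below and 3381, 1317, 615, 535 and 749 above it. All 3 sets were lowest in ranges above 30%.

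Malat1, a long non-coding RNA retained in the nucleus, did not follow a straight line. It was 11415, 22072, 25763 and 28190 in the 4 ranges below the limit and 13909, 7602, 5927, 6041 and 6622 in the 5 above it. It was therefore highest just below the limit, between 15 and 20%. Nuclear-encoded subunits of oxidative phosphorylation ran the other way, at 16213, 19862, 22738 and 27403 below the limit and 37560, 43990, 45547, 46629 and 49387 above it. Astrocyte markers stood at 1606, 4388, 7964 and 13311 below and 21645, 26816, 26946, 27625 and 27255 above it. Mbp, the myelin basic protein, went along with them, at 3794, 7332, 12719 and 19960 below and 26022, 29856, 28856, 27925 and 29120 above. Most of these sets levelled off above 25%, while nuclear-encoded oxidative phosphorylation went on to its highest value in the last range.

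**Figure D2:**
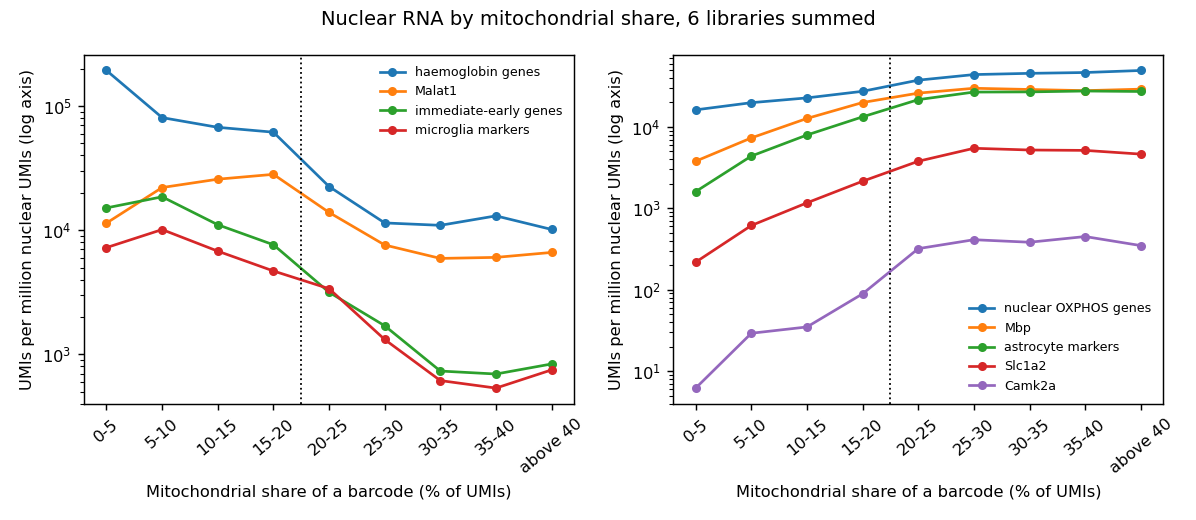
Points give plain CPM of nuclear UMIs (log axis) in each range of mitochondrial share, summed over the 6 libraries, and the dotted line marks the 20% limit. Left, haemoglobin, immediate-early and microglia genes are lower above the limit and Malat1 peaks at 28190 between 15 and 20%. Right, nuclear-encoded oxidative phosphorylation (OXPHOS) genes, Mbp, Slc1a2, Camk2a and the summed astrocyte markers are higher above it.

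The 4754 barcodes with at least 200 genes were clustered without the mitochondrial genes, and 2 clusters held most members. Cluster A held 954 barcodes, of which 829 were members (86.9%, exact 95% interval 84.6% to 89.0%). Cluster B held 404, of which 387 were members (95.8%, 93.3% to 97.5%). Together they took 1216 members, which is 87.2% of them, against 142 or 4.23% of the low-mitochondrial barcodes. The leading genes of cluster A were Ddah1, Cplx1, Acsbg1, Itih3, Enho, Slc1a2, Cxcl14, Aldoc, Lsamp and Sparcl1, mostly astrocyte genes, with the presynaptic Cplx1. Those of cluster B included Sst, Hpcal4, Camk2a, Hoxb9, Hoxb8, Rab3c and Resp18, mostly neuronal. Oligodendrocyte, astrocyte and neuron markers summed to 57154, 29802 and 4664 plain CPM in cluster A. In cluster B they summed to 33111, 20075 and 5332 plain CPM. Because both clusters combined markers of neurons and of astrocytes, neither was given a cell type name.

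Membership of the 2 clusters changed by steps across the limit. Clusters A and B held 58.2% of the members just inside the limit and 34.2% of the barcodes just outside it. By range of mitochondrial share they held 0.345, 1.66, 6.61 and 22.1% below the limit and 64.3, 89.3, 94.9, 97.6 and 98.5% above it. By library, they held 73.4% and 81.3% of members in SOD1-Nec, 92.4% and 87.6% in SOD1-Veh and 93.6% and 91.8% in WT-Veh. The SOD1-Nec libraries thus had the 2 lowest values.

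The 178 other members were spread over named classes, each called after markers. There were 43 microglia-like members, 6.39% of that class. Of these, 41 were in 1 of the 2 microglia-like clusters, where they made up 11.7% of the barcodes, and 2 in the other, which had higher Ccl3 and Ccl4, where they made up 0.617%. There were 40 neuron-like members (13.6% of the class), 24 B cell-like (4.47%), 10 erythroid cell-like (2.42%), 10 neutrophil-like (2.35%), 9 oligodendrocyte-like (4.09%) and 5 monocyte or macrophage-like (1.44%). None of the 21 fibroblast or meningeal cell-like barcodes was a member. Of the 174 neuron-like barcodes of WT-Veh 2, 9 were members.

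In edgeR's quasi-likelihood test on barcode counts, with the library as a term, 14 of 16 classes (87.5%) differed in their share of the 2 sides. Clusters A and B were higher among members, by 3.97 ± 0.39 and 5.72 ± 0.50 on the log2 scale (adjusted p = 7.03e-06 and 4.04e-06). The other 12 were lower, from -5.10 ± 0.82 for monocyte or macrophage-like barcodes (adjusted p = 0.000227) to -2.13 ± 0.61 for endothelial cell-like ones (adjusted p = 0.00808). Microglia-like barcodes stood at -2.71 ± 0.48 (adjusted p = 0.000372), neutrophil-like at -4.26 ± 0.73 (adjusted p = 0.000354) and erythroid cell-like at -4.14 ± 0.64 (adjusted p = 0.000216). The neuron-like and skeletal muscle-like classes did not pass, at -0.67 ± 0.58 (adjusted p = 0.275) and -2.19 ± 1.21 (adjusted p = 0.118). Shares sum to 1, so clusters A and B lower all other shares: with TMM factors over classes 7 of 16 passed, the neuron-like class turned to 1.60 and the microglia-like class did not pass (-0.43, adjusted p = 0.567).

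**Figure D3:**
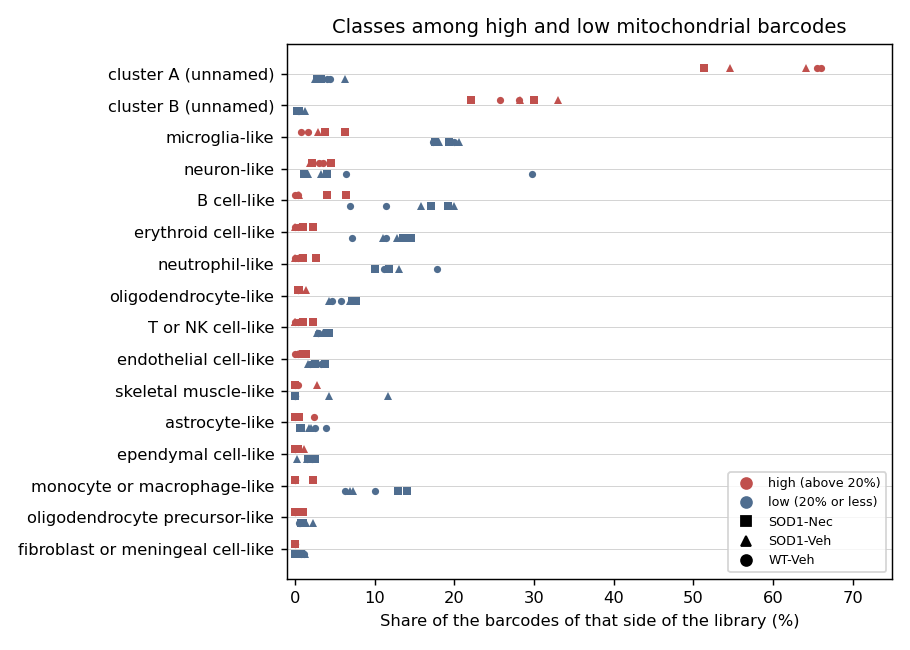
Each mark is 1 library, red for high-mitochondrial and blue for low-mitochondrial barcodes, and its place is the percentage of that side of the library in the class. Cluster A took 51.3% to 66.0% and cluster B 22.1% to 33.0% of members, while the microglia-like class took 17.3% to 20.6% of low-mitochondrial barcodes and at most 6.31% of members.

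Within classes, the share of members was then compared between groups in 12 classes with at least 5 barcodes in every library. No class passed in edgeR's test, neither for SOD1-Veh minus WT-Veh nor for SOD1-Nec minus SOD1-Veh (0% of classes called in each), and 1 and 2 classes had an unadjusted p below 0.05. Cluster A was 87.6% and 91.5% members in SOD1-Veh against 87.0% and 88.5% in WT-Veh, a difference of 0.02 ± 0.07 on the log2 scale. It was 86.4% and 78.7% members in SOD1-Nec, -0.11 ± 0.08 against SOD1-Veh. Microglia-like barcodes were members in 8.89% and 9.195% of cases in SOD1-Veh and 3.74% and 2.04% in WT-Veh (1.59 ± 0.70, adjusted p = 0.457). B cell-like barcodes were members in 7.38% and 7.27% of cases in SOD1-Nec and 1.56% and 1.14% in SOD1-Veh (2.36 ± 0.64, adjusted p = 0.193). Neither passed the adjustment over classes, and both classes were chosen after their values were seen.

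Nuclear genes were then compared between members and low-mitochondrial barcodes of the same library. The mitochondrial share had divided the sides, and the levels of named nuclear genes were not used for this. Both sides also had to pass the limit on detected genes, which depends on how nuclear UMIs are spread over genes. Shallow barcodes dominated by a few transcripts, such as those of haemoglobin, can fail that limit. The comparison is therefore not fully independent of the selection, and the part of the gene limit in the haemoglobin values was not tested. Of 4191 nuclear genes tested in edgeR with the library as a term, 2577 passed (61.5%), 1157 higher in members (27.6%) and 1420 lower (33.9%), with a median log2 fold change of -0.16 over all genes tested. The levels of the 6 libraries did not overlap between the sides in 39.1% of genes. Counts for gene groups below are to be read against these backgrounds. Levels are given as the lowest, the median and the highest of the 6 libraries, in normalised CPM of nuclear genes.

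Nuclear genes for the respiratory chain were higher in members. All 25 tested genes of complex I, which passes electrons from NADH, rose, with a median log2 fold change of 0.97, and all 20 of complexes III and IV rose, with a median of 1.04. Of 15 ATP synthase genes 12 rose and 1 fell, with a median of 0.83. The summed level of the 60 genes was 32555, 38591 and 43071 CPM in members, against 14263, 20880 and 28026 CPM in low-mitochondrial barcodes, and the sides did not overlap.

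Cox6c, a subunit of complex IV, had 1825, 2061 and 2585 CPM in members and 537, 810 and 980.3 CPM in low-mitochondrial barcodes. It was 2.95-fold higher (log2 fold change 1.56 ± 0.14, adjusted p = 3.98e-08) in all 6 libraries. The complex I subunit Ndufa12 had 326, 519 and 640.2 CPM against 152, 171 and 307 CPM (log2 fold change 1.504 ± 0.19, adjusted p = 1.61e-06). Neither gene overlapped between the sides. The smallest increases were in the complex III subunit Uqcrc2 (log2 fold change 0.51 ± 0.20) and the complex I subunit Ndufb11 (0.53 ± 0.20). Atpif1, whose protein holds back ATP hydrolysis by the synthase, fell, with 428, 503 and 679 CPM in members and 435, 877 and 1110.5 CPM in low-mitochondrial barcodes (log2 fold change -0.48 ± 0.16, adjusted p = 0.0136), and its sides overlapped.

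Other nuclear genes for mitochondria did not move together. Of 15 genes for protein import, chaperones and proteases, 5 rose and 3 fell. The import factor Timm8b rose by 1.48 ± 0.19 on the log2 scale, with 214, 342 and 359.8 CPM against 83.2, 123 and 196 CPM, while Timm44, of the inner membrane import motor, fell (-1.14 ± 0.37, adjusted p = 0.0125). Of 9 genes for the mitochondrial ribosome and transcription, Slirp, an RNA-binding protein that stabilises mitochondrial messages, rose (0.94 ± 0.19) and the ribosomal subunit Mrpl33 fell (-0.80 ± 0.20). The list medians were 0.26 and 0.34.

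Of 13 tested genes of mitophagy, by which damaged mitochondria are degraded, and of mitochondrial dynamics, 5 rose and 2 fell. Pink1, the kinase that marks damaged mitochondria, was the largest change, with 592, 707 and 821 CPM in members and 115, 172 and 225 CPM in low-mitochondrial barcodes. It was 4.67-fold higher in members (log2 fold change 2.22 ± 0.16, adjusted p = 2.40e-09), with no overlap of the sides. The fission factor Fis1 (0.74 ± 0.16), the channel Vdac1 (0.85 ± 0.19) and the fusion factor Mfn1 (1.39 ± 0.36) rose too. The autophagy receptor Sqstm1 fell (-0.65 ± 0.21, adjusted p = 0.0123).

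Of 14 glycolysis genes 10 rose and 2 fell, with a median of 0.88. The aldolase of astrocytes and neurons, Aldoc, had 4285, 5192 and 6103 CPM in members and 622, 738 and 934 CPM in low-mitochondrial barcodes, a log2 fold change of 2.93 ± 0.13 (adjusted p = 7.09e-12). Ldhb rose by 1.96 ± 0.15 and the neuronal enolase Eno2 by 2.19 ± 0.39 on the log2 scale. Hk2, the hexokinase of proliferating and activated cells, fell (-3.12 ± 0.41, adjusted p = 3.01e-06), as did Ldha (-0.64 ± 0.20, adjusted p = 0.0103).

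Genes of acute cell stress were lower in members. All 20 tested immediate-early and dissociation-response genes fell, with a median log2 fold change of -3.71, and their summed level was 713, 999 and 3267 CPM against 12990, 18081 and 22432 CPM. Fos, a subunit of the transcription factor AP-1, had 50.9, 79.4 and 210.2 CPM in members and 1399, 2032 and 2636 CPM in low-mitochondrial barcodes. It was 19.3-fold lower in members (log2 fold change -4.27 ± 0.26, adjusted p = 2.34e-10). Its partner Jun had 52.5, 121 and 306 CPM against 1392, 2389 and 2897 CPM (-3.91 ± 0.30, adjusted p = 5.65e-09). No library of one side reached the other for either gene.

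Of 12 genes of the integrated stress and unfolded protein responses, 11 fell and the list median was -1.78. They included Ppp1r15a (-4.17 ± 0.30), which helps end the translation block of that response, Atf3 (-3.66 ± 0.32) and the chaperone Hspa5 (-1.99 ± 0.19). Of 8 heat shock and polyubiquitin genes 4 fell, among them Dnajb1 (-2.98 ± 0.40), Ubb (-0.63 ± 0.13) and Hspa8 (-0.44 ± 0.15), and 1, Hsph1, rose (0.79 ± 0.25).

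Cell death genes with enough UMIs to test were few and none rose. Of 7 apoptosis genes 4 fell, among them the survival factor Mcl1, with 37.7, 58.8 and 124 CPM in members and 327, 387 and 421 CPM in low-mitochondrial barcodes (-2.45 ± 0.24, adjusted p = 8.30e-08). The pro-apoptotic Bax fell too (-1.01 ± 0.32, adjusted p = 0.0118). All 4 tested genes of necroptosis and pyroptosis fell: Casp4 (-3.49 ± 0.54), Pycard (-3.08 ± 0.47), Tnfrsf1a (-2.78 ± 0.56) and Cflar (-1.52 ± 0.40). Markers of immune cells were lower with them, with list medians of -2.95 for microglia, -4.80 for monocytes or macrophages and -4.95 for neutrophils, and their part in these values was not tested. Without clusters A and B, Pycard did not pass (-0.85, adjusted p = 0.421). Ripk1, which encodes the kinase that Necrostatin-1s inhibits, had 4 UMIs over all members and 80 over low-mitochondrial barcodes and could not be tested at this depth.

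Genes for the cytoskeleton and lysosome were lower in members. Of 16 genes of the actin cytoskeleton 15 fell, with a median of -1.61. Beta-actin, Actb, had 1215, 1462 and 2063 CPM in members and 5009.8, 6118 and 6829.5 CPM in low-mitochondrial barcodes (-1.86 ± 0.14, adjusted p = 3.05e-09), with no overlap. Of 16 lysosome genes 14 fell, with a median of -2.19, among them the cathepsins Ctsd (-2.40 ± 0.19) and Ctss (-2.47 ± 0.20). Several of these, such as Ctss, Coro1a and Laptm5, are strongly expressed by microglia and other immune cells. Markers of microglia, a list that includes Ctss, were lower with them. The summed level of the 14 microglia markers was 747, 1057 and 2541 CPM against 6454, 8941 and 11339 CPM, all 14 fell and none was at 0. After matching on class and, as far as barcodes allowed, on depth, 5 of 8 tested lysosome genes and 2 of 7 tested actin genes fell.

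Myelin genes were split. Mbp had 19604, 24101 and 31482 CPM in members and 5275, 7418 and 8804 CPM in low-mitochondrial barcodes, 3.73-fold higher (log2 fold change 1.90 ± 0.11, adjusted p = 1.92e-10). Mobp, the myelin-associated oligodendrocytic basic protein, had 5180.1, 6002 and 6621 CPM against 1806, 2124 and 2317 CPM (1.64 ± 0.12, adjusted p = 1.96e-09). These were the only genes of an 8-gene myelin list to rise, and the other 6 fell, among them Mag (-2.02 ± 0.23), the myelin-associated glycoprotein. Mag had 84.9, 105 and 162 CPM in members against 333, 532 and 759.5 CPM. The messages of Mbp and Mobp are known to be carried into the processes of oligodendrocytes and translated there. Barcodes with fewer than 100 genes showed the same split, with 21877 plain CPM of Mbp, 5579 of Mobp and 73.3 of Mag. Low-mitochondrial barcodes had 6313, 1826 and 458 plain CPM. The source of the split was not tested.

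Among iron and antioxidant genes, the ferritin heavy chain Fth1 rose (1.26 ± 0.11, adjusted p = 2.27e-08), with 19245, 26223 and 33460 CPM against 9883, 12341 and 14237 CPM, and the lipid hydroperoxidase Gpx4 rose (0.68 ± 0.25, adjusted p = 0.0229). The ferritin light chain Ftl1 fell (-1.71 ± 0.16) and so did Gpx1 (-3.45 ± 0.17). In all 7 of 14 fell. Sod1 itself had a log2 fold change of 0.38 ± 0.17 (adjusted p = 0.0582).

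Of 40 cytosolic ribosomal protein genes 16 rose and 4 fell, with a median of 0.17, which DESeq2 turned into 8 and 7 with a median of 0.07. Of 15 translation factors 3 rose and 4 fell, led by the poly(A)-binding protein Pabpc1 (-2.36 ± 0.15), with 657, 836 and 1442 CPM in members and 4288, 5033 and 5924 CPM in low-mitochondrial barcodes. Of 4 nuclear long non-coding RNAs, Neat1 (-2.36 ± 0.26), Malat1 (-1.36 ± 0.16) and Snhg11 (-0.91 ± 0.33) fell, and Meg3 had 0.09 ± 0.24 (adjusted p = 0.756). The call of Snhg11 was lost or reversed in 7 of 17 alternatives, among them DESeq2 (-0.75, adjusted p = 0.104), without WT-Veh 1 (-0.70, adjusted p = 0.137) and without WT-Veh 2 (-0.29, adjusted p = 0.389). It turned to 1.23 without clusters A and B and to 1.44 at a limit of 10%. Malat1 had 3400.5, 5232 and 11944 CPM against 11581, 16406 and 33196 CPM, lower in members in all 6 libraries, although the sides overlapped. All 4 tested haemoglobin genes fell, with a median of -3.90, and their summed level was 6733, 11683 and 19306 CPM against 130480, 172670 and 207910 CPM.

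**Figure D4:**
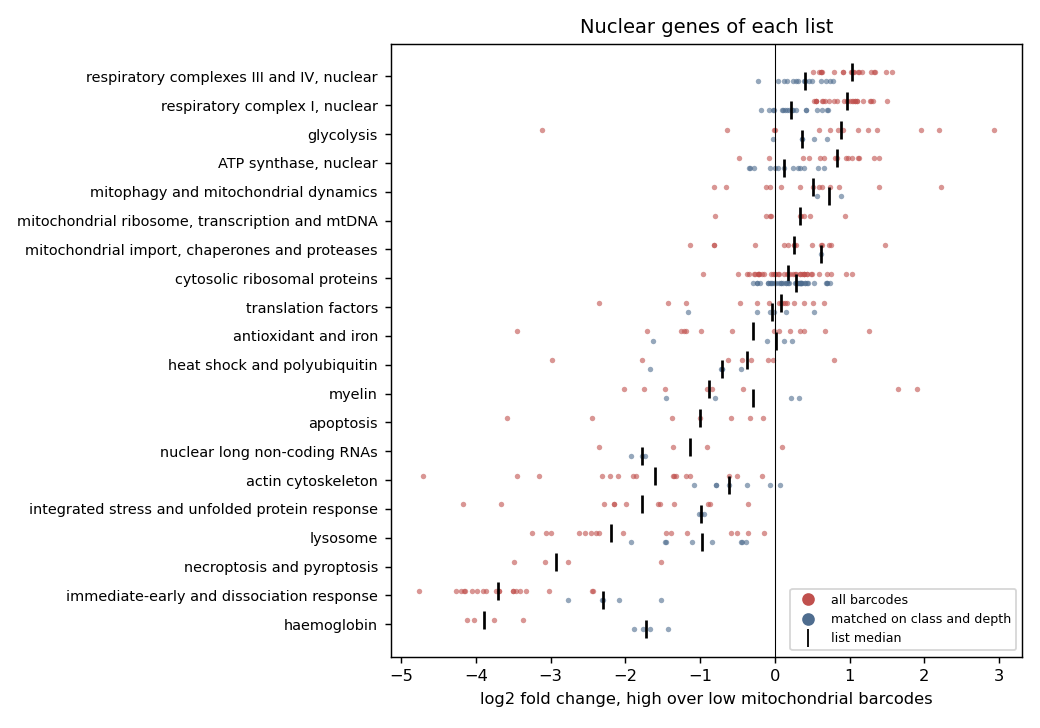
Points are the log2 fold changes of the tested genes of each list, high over low-mitochondrial barcodes, and black ticks are list medians. Red points are with all barcodes, and blue points are after matching on class and, as far as barcodes allowed, on depth. With all barcodes the medians run from 1.04 for respiratory complexes III and IV to -3.90 for haemoglobin. After matching, the respiratory medians are nearer 0, over fewer tested genes, at 0.40 for complexes III and IV and 0.21 for complex I, and that of immediate-early genes stays at -2.30.

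The 10 genes with the largest increase were mostly of neurons. Hpcal4, a neuronal calcium sensor, led with 85.0, 212 and 275 CPM in members and 4.46, 9.89 and 13.9 CPM in low-mitochondrial barcodes (4.40 ± 0.30, adjusted p = 1.09e-09). Camk2a, the kinase subunit whose message is known to be carried into dendrites, had 201, 341 and 434 CPM against 14.03, 19.97 and 37.5 CPM (4.05 ± 0.24, adjusted p = 1.77e-10). The inhibitors of the same kinase, Camk2n1 (3.71 ± 0.14) and Camk2n2 (4.24 ± 0.26), were among the 10 as well. So were the presynaptic Cplx1 (3.89 ± 0.25) and Rab3c (3.97 ± 0.31), Nrsn1 (4.09 ± 0.23), Lrrc17 (4.09 ± 0.25) and the long non-coding RNAs 2810433D01Rik (3.86 ± 0.20) and Gm15728 (3.75 ± 0.30). In none of the 10 did the sides overlap.

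The 10 genes with the largest decrease had no UMI in members, so only bounds can be given, with a floor of 3 counts over the 6 libraries. Ctse had 0 UMIs in members and 613 in low-mitochondrial barcodes, at least 42.6-fold lower in members. The others were Ermap, Plekho1, Nfe2, Osm, Esco2, Cpd, Atad2, Cd48 and Irf5, which had 320 to 154 UMIs in low-mitochondrial barcodes and were at least 22.3-fold to at least 10.7-fold lower. Ermap and Nfe2 are erythroid genes, and Osm, Cd48 and Irf5 are genes of white blood cells.

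Marker lists of monocytes or macrophages, neutrophils and erythroid cells fell, as their classes did. The astrocyte and neuron lists rose, although the classes named after them did not. Astrocyte-like barcodes were 0.502% of members and 1.79% of low-mitochondrial barcodes. Neuron-like barcodes were 2.87% and 7.56%. All 15 astrocyte markers rose, with a summed level of 16680, 21155 and 29115 CPM in members and 3408, 4149 and 4617 CPM in low-mitochondrial barcodes. The glutamate transporter Slc1a2 had 2799, 3881 and 6293 CPM against 472, 604 and 611 CPM (2.94 ± 0.15), and the intermediate filament Gfap had 353, 571 and 1084 CPM against 78.1, 107 and 138 CPM (2.75 ± 0.20). Of 12 tested neuron markers 9 rose and 1, Snhg11, fell, a call lost without WT-Veh 2, the library with most neuron-like barcodes. The neurofilament Nefl had 946, 1082 and 1453 CPM against 108, 125 and 267 CPM (3.15 ± 0.18). All 10 tested monocyte or macrophage markers, all 10 neutrophil markers and all 12 erythroid markers fell. Apoe, made by astrocytes and microglia, rose (1.65 ± 0.16).

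Because clusters A and B held most members, the comparison was repeated without them, a choice made after seeing the clusters. Among the 178 remaining members and the low-mitochondrial barcodes outside those clusters, 442 of 3023 genes passed (14.6%), 112 higher (3.7%) and 330 lower (10.9%). Of these, 417 had passed with all barcodes too, 414 of them in the same direction. None of 25 complex I genes passed, and of complexes III and IV only Uqcr10 did (0.94 ± 0.34, adjusted p = 0.0407), so the increase of the respiratory chain was not detectable outside clusters A and B at this depth. Immediate-early genes still fell, 18 of 21, with Fos at -2.08 ± 0.31 (adjusted p = 1.23e-09). Pink1 (1.58 ± 0.39), Aldoc (1.89 ± 0.26), Mbp (1.43 ± 0.22) and Mobp (1.17 ± 0.24) still rose. Malat1 turned to 0.19 ± 0.21 (adjusted p = 0.604), and Meg3 rose (1.18 ± 0.29).

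In a second repeat, each member was paired with a low-mitochondrial barcode of the same library and class with the nearest number of nuclear UMIs, which gave 319 pairs, so 319 of the 1394 members entered. Clusters A and B, with 1216 members, hold 142 low-mitochondrial barcodes, so at most 142 of those members could be paired and most were left out. Members were paired from the most nuclear UMIs down, with no limit on the difference, until the low-mitochondrial barcodes ran out. In clusters A and B the pairs thus hold the deepest members and every low-mitochondrial barcode, so depth was matched only in part there. Of 428 genes tested 112 passed (26.2%), 45 higher (10.5%) and 67 lower (15.7%), of which 102 had passed with all barcodes, all but 1 in the same direction. All 5 tested immediate-early genes fell, with a median of -2.30, and Fos stood at -2.32 ± 0.34 (adjusted p = 1.08e-05). The 3 tested nuclear long non-coding RNAs all fell, Malat1 at -1.75 ± 0.21 and Meg3 at -1.78 ± 0.22. All 4 haemoglobin genes fell and all 5 heat shock genes fell. Of the respiratory chain 1 of 18 complex I genes, 3 of 16 genes of complexes III and IV and 2 of 13 ATP synthase genes rose, with Cox6c at 0.77 ± 0.18 (adjusted p = 0.00204). Pink1 (0.88 ± 0.29, adjusted p = 0.0272) and Aldoc (0.70 ± 0.19, adjusted p = 0.00683) still rose. Mbp was at 0.32 ± 0.19 (adjusted p = 0.229), against 1.90 with all barcodes. Mobp (0.22 ± 0.18, adjusted p = 0.382), Ldhb (0.52, adjusted p = 0.0832) and Fth1 (0.13, adjusted p = 0.66) did not pass after matching either.

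Within cluster A alone, the 829 members were compared with its 125 low-mitochondrial barcodes, the only class with enough barcodes on both sides. There 17 of 354 genes passed (4.8%), 3 higher (0.847%) and 14 lower (3.95%). Malat1 had 2539 to 10967 CPM in members and 7524 to 44975 CPM in the others, lower in 6 of 6 libraries (-2.28 ± 0.26, adjusted p = 8.07e-07). Hba-a1 (-2.31 ± 0.44), Hbb-bt (-2.22 ± 0.43), Hba-a2 (-2.21 ± 0.44), Cnp (-2.06 ± 0.43), Cd81 (-1.64 ± 0.27), Tuba1a (-1.502 ± 0.31) and Actb (-1.40 ± 0.22) fell as well, although Hba-a1 and Hba-a2 were lower in 4 of 6 libraries, and Cd81 and Tuba1a in 5 of 6. The 3 that rose were Cox17, a copper chaperone for complex IV (1.51 ± 0.44), Nefl (1.14 ± 0.31) and Qdpr (1.08 ± 0.27). Without SOD1-Nec 1 only 3 genes passed, and with at least 400 genes per barcode none of 65 did in edgeR, 3 having an unadjusted p below 0.05. No respiratory gene passed within cluster A, of 15 of complex I, 16 of complexes III and IV and 12 of ATP synthase. Fos had 25.4 plain CPM in members of cluster A and 18.2 in its low-mitochondrial barcodes, on 9 and 1 UMIs. Jun had 48.0 and 54.5, on 17 and 3 UMIs. With so few UMIs, a fall of these 2 genes was neither seen nor testable within cluster A.

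Markers of several cell types occurred in the same barcode. For these counts Meg3 and Snhg11 were left out of the neuron markers, unlike in the sums and counts above. With every barcode thinned to 200 nuclear UMIs, 45.6% of members held both a neuron and an astrocyte marker UMI, against 9.196% of low-mitochondrial barcodes. Without thinning the shares were 65.9% and 26.1%, at median depths of 493 and 600 UMIs. Neuron-like barcodes stood at 42.2% (median 423 UMIs) and astrocyte-like ones at 14.9% (534 UMIs). Erythroid cell-like barcodes, which should lack both marker sets, stood at 3.87% (1406 UMIs), and B cell-like ones at 7.82% (481 UMIs). UMIs of an oligodendrocyte marker were found in 99.7% of thinned members and 84.1% of thinned low-mitochondrial barcodes.

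Scrublet marked 19 of the 4754 barcodes as doublets, 5 of them members. Across genes, the log level in members correlated with that in barcodes of fewer than 100 genes at r = 0.683 to 0.848 by library, and low-mitochondrial barcodes at r = 0.475 to 0.638. This is a description over 2940 to 3427 genes that are not independent, in sums that share a library. Haemoglobin did not follow: erythroid markers summed to 14908 plain CPM in members, 149930 in low-mitochondrial barcodes and 657890 in barcodes with fewer than 100 genes. The part of free RNA, cell fragments and doublets in the member profile was not tested.

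The genotype was compared within members, over SOD1-Veh and WT-Veh libraries. Of 2069 genes, 6 passed in edgeR (0.29%), 5 higher (0.242%) and 1 lower (0.0483%) in SOD1-Veh. The number was 14 without SOD1-Nec 1, without SOD1-Nec 2 or without WT-Veh 1, 17 without SOD1-Veh 1 and 19 without WT-Veh 2. In sums of barcodes, fewer cells of a type and less RNA per cell cannot be told apart. Levels here are normalised CPM of the fit over the 6 member sums. Sod1 had 5916 and 8070.1 CPM in SOD1-Veh and 654 and 605 CPM in WT-Veh, 11.4-fold higher (log2 fold change 3.51 ± 0.25, adjusted p = 6.25e-13). Gfap, which reactive astrocytes raise, had 1139.6 and 1280.1 CPM against 402 and 519.8 CPM (1.43 ± 0.28, adjusted p = 0.00792). The astrocyte marker list, Gfap included, did not rise with it in sum. It totalled 23563 and 20036 CPM in SOD1-Veh and 22274 and 29115 CPM in WT-Veh, on the scale of the comparison of both sides. The call of Gfap was lost without SOD1-Veh 2 (1.32, adjusted p = 0.0897), at a limit of 10% (adjusted p = 0.0629) and with at least 400 genes (adjusted p = 0.248).

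The iron-storage gene Ftl1 had 427 and 735 CPM in SOD1-Veh and 224 and 225 CPM in WT-Veh (1.39 ± 0.33, adjusted p = 0.0474), a call lost in 9 of 17 alternatives, among them DESeq2, a limit of 10%, at least 400 genes, without either WT-Veh library or SOD1-Veh 2, and clusters A and B alone. Meg3, a maternally expressed long non-coding RNA of neurons, fell, with 327 and 334 CPM against 906 and 1909 CPM (-2.04 ± 0.35, adjusted p = 0.00122). This call was lost in DESeq2 and with at least 400 genes. The neuron marker list includes Meg3 itself. With it, the list summed to 3648 and 3309 CPM in SOD1-Veh and 4842 and 5482 CPM in WT-Veh. On the scale of these sums, Meg3 had 293 and 283 CPM in SOD1-Veh and 796 and 1609 CPM in WT-Veh. The part of the other neuron markers in the change of Meg3 was not tested. The 2 other genes were the pseudogenes Gm10269 (1.67 ± 0.36, adjusted p = 0.0253) and Gm11273, which RefSeq lists as Cox5b-ps (1.54 ± 0.36, adjusted p = 0.0464). The call of Gm10269 was lost in 4 of 17 alternatives and that of Gm11273 in 8 of 17, both in DESeq2 and with at least 400 genes. Reads of these pseudogenes may come from parent genes of nearly the same sequence.

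No gene of the respiratory chain lists passed, of 25, 20 and 14 tested, with medians of 0.11, 0.02 and -0.02 against -0.0037 over all genes. Of 14 antioxidant and iron genes only Sod1 and Ftl1 did. Malat1 had 3796 and 6200 CPM in SOD1-Veh and 5934 and 14168 CPM in WT-Veh (-0.95 ± 0.30, adjusted p = 0.401). Klf9 was at -1.20 ± 0.33 (adjusted p = 0.225), S100a8 at -1.37 ± 0.39 (adjusted p = 0.225) and Apoe at 0.07 ± 0.20 (adjusted p = 0.988). Trem2, a receptor of activated microglia, had 15 UMIs in SOD1-Veh and 2 in WT-Veh, too few to test.

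The treatment was compared within members over SOD1-Nec and SOD1-Veh libraries, which share the SOD1-Veh libraries with the genotype comparison. Of 2069 genes 12 passed (0.58%), 9 higher (0.435%) and 3 lower (0.145%) in SOD1-Nec. The number was 5 without SOD1-Nec 1, 27 without SOD1-Nec 2, 29 without SOD1-Veh 1, 47 without WT-Veh 1 and 45 without WT-Veh 2. S100a9 and S100a8, calcium-binding proteins of neutrophils, rose. S100a9 had 3083 and 928 CPM in SOD1-Nec and 235 and 468 CPM in SOD1-Veh (2.62 ± 0.39, adjusted p = 7.36e-05), and WT-Veh had 991 and 722 CPM. S100a8 had 2269.9 and 989.8 CPM against 151 and 456 CPM (2.54 ± 0.38, adjusted p = 7.36e-05). The neutrophil granule gene Camp rose with them (1.97 ± 0.47, adjusted p = 0.0385).

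SOD1-Nec 1 was the highest library for all 3 genes. Without it S100a8 still passed, while S100a9 (1.46, adjusted p = 0.0944) and Camp (0.98, adjusted p = 0.792) did not. The neutrophil marker list includes S100a8, S100a9 and Camp, so its sum is not separate from these genes. The list summed to 6821 and 2035 CPM in SOD1-Nec, 540.5 and 1169 CPM in SOD1-Veh and 2052 and 1609 CPM in WT-Veh. Monocyte or macrophage markers, which share Lyz2 with the neutrophil list, summed to 783 and 153 CPM in SOD1-Nec and 105 and 151 CPM in SOD1-Veh. In clusters A and B alone the 3 neutrophil genes did not pass, and Camp stood at -0.06. The alpha-globin genes Hba-a1, with 4603 and 3898 CPM in SOD1-Nec and 1282 and 2359.8 CPM in SOD1-Veh (1.28 ± 0.26, adjusted p = 0.00731), and Hba-a2 (1.31 ± 0.27, adjusted p = 0.00819) rose, and passed in clusters A and B alone too. Neither passed without SOD1-Veh 1 (0.86, adjusted p = 0.201 for Hba-a1, and 0.84, adjusted p = 0.248 for Hba-a2) or without SOD1-Nec 1 (1.13, adjusted p = 0.172, and 1.19, adjusted p = 0.144). Both calls were also lost above 30% and with at least 400 genes.

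Acbd3, a Golgi scaffold protein, had 264 and 235 CPM in SOD1-Nec and 16.8 and 44.5 CPM in SOD1-Veh (3.12 ± 0.56, adjusted p = 0.00169), with 102.8 and 100.9 CPM in WT-Veh. This rested on 44 and 6 UMIs, and the call was lost with at least 400 and with at least 100 genes. Of the ribosomal proteins Rps21 (1.14 ± 0.25, adjusted p = 0.015) and Rplp1 (0.98 ± 0.23, adjusted p = 0.0385) rose. Each of these calls was lost in 5 of 17 alternatives, among them a limit of 10% and at least 400 genes. Leaving out a library took the values as low as 0.78 for Rps21 and 0.70 for Rplp1. Nfkbia, the inhibitor of NF-kappaB that is itself induced by it, rose (1.70 ± 0.41, adjusted p = 0.0439). Nfkbia was the only called gene of 8 tested in the immediate-early list, all 8 of which had positive values with a median of 1.76, against -0.01 over all genes. The call of Nfkbia was lost in 7 of 15 alternatives, among them without SOD1-Nec 1 (1.35, adjusted p = 0.492) and in clusters A and B alone (0.998, adjusted p = 0.579). The immediate-early list summed to 3267 and 1160.2 CPM in SOD1-Nec, 713 and 801 CPM in SOD1-Veh and 837 and 1432 CPM in WT-Veh. Microglia markers summed to 2541 and 926 CPM in SOD1-Nec, 1389 and 1188 CPM in SOD1-Veh and 747 and 805 CPM in WT-Veh, and their part in these values was not tested. SOD1-Nec 1 was the highest library in both sums.

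Gpx4, which detoxifies lipid peroxides, fell, with 73.9 and 61.9 CPM in SOD1-Nec and 193 and 367 CPM in SOD1-Veh (-1.93 ± 0.47, adjusted p = 0.0439). Ftl1 fell, with 190 and 210.3 CPM against 427 and 735 CPM (-1.46 ± 0.35, adjusted p = 0.0385). The third was Gm10269 (-1.55 ± 0.38, adjusted p = 0.0444). None of the 3 passed in clusters A and B alone. The calls were lost in 6 of 15 alternatives for Gpx4, and in 6 of 16 for Ftl1 and for Gm10269. Sod1 was at -0.45 ± 0.22 (adjusted p = 0.48), Gfap at -0.81 ± 0.28 (adjusted p = 0.214) and Meg3 at 0.82 ± 0.38 (adjusted p = 0.436), and none of them passed. With at least 400 genes per barcode no gene passed in edgeR, 63 genes having an unadjusted p below 0.05, and DESeq2 called 4 of the 12: Hba-a1, Hba-a2, Rplp1 and Rps21.

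**Figure D5:**
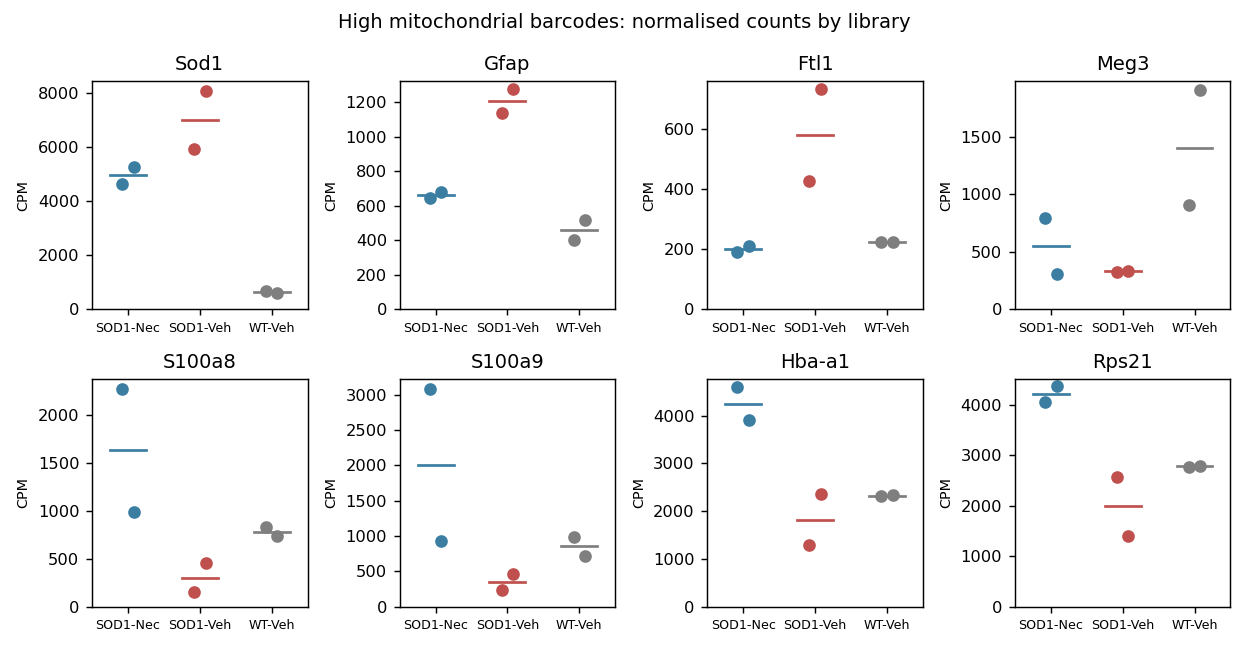
Points are the normalised CPM of 8 genes in the members of each library, with lines at group means of 2 libraries. Sod1 is at 4635 and 5271 in SOD1-Nec and 5916 and 8070 in SOD1-Veh, above 654 and 605 in WT-Veh. Gfap and Ftl1 are highest in SOD1-Veh, and S100a8, Hba-a1 and Rps21 are highest in SOD1-Nec. S100a9 has its highest group mean in SOD1-Nec, but SOD1-Nec 2, at 928, is below WT-Veh 1, at 991.

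Whether the groups differed in members otherwise than in low-mitochondrial barcodes was tested as a difference of the high against low contrast between groups. For SOD1-Veh minus WT-Veh 17 of 6660 genes passed (0.255%), 7 positive (0.105%) and 10 negative (0.15%). Meg3 was among the positive ones (1.66 ± 0.39, adjusted p = 0.0145). It had 293 and 283 CPM in members and 175 and 157 CPM in low-mitochondrial barcodes of SOD1-Veh, and 796 and 1609 CPM in members and 988 and 4080 CPM in low-mitochondrial barcodes of WT-Veh. The value of 4080 belongs to WT-Veh 2, the library with most neuron-like barcodes. Sod1 (-1.09 ± 0.33, adjusted p = 0.178) and Gfap (1.01 ± 0.45, adjusted p = 0.731) did not pass. For SOD1-Nec minus SOD1-Veh 34 of 6660 genes passed (0.511%), 32 positive (0.48%) and 2 negative (0.03%). Of 21 immediate-early genes tested 8 were among the positive ones, and none among the negative ones, with a median difference of 2.29 against 0.02 over all genes. Of the 34 calls only 2 were made without SOD1-Nec 1, the library with the highest immediate-early and microglia sums among members, against 49 without SOD1-Nec 2, 9 without SOD1-Veh 1 and 14 without SOD1-Veh 2.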

How the data were processed

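Drop-seq, which pairs single cells with barcoded beads in droplets, gave 6 tables of UMI counts per gene and barcode, which the authors deposited unnormalised and, per the submitters' processing notes, made on mouse build mm9. The aligner is not given in the sources used here, nor are the counting settings. Tables numbered 1 list 18169 genes and those numbered 2 list 18650, and sums used the 17042 in common.

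Members had at least 200 genes and over 20% of UMIs on mt- genes. The members and gene lists were chosen with earlier results of these data known. Barcodes were clustered without mt- genes in scanpy 1.11.5 and leidenalg 0.10.2 (scaling to 10000, 2000 variable genes, 30 components, 15 neighbours, resolution 1). Of these barcodes, 19 were marked as doublets by Scrublet, as run in scanpy, and kept. Nuclear counts were summed per library and side, filtered with filterByExpr, TMM-scaled and tested in edgeR 4.0.16 (R 4.3.3) by the quasi-likelihood test, with library as a term for members against low-mitochondrial barcodes, and Benjamini-Hochberg adjusted p under 0.05. DESeq2 1.42.0 was an alternative. Fold changes are given with standard errors. Between groups, all 6 libraries shared a fit with no replicate term, since deviations of same-numbered libraries were not positively correlated in every pair of groups. The correlations were -0.0037, -0.081 and 0.0456 over 2069 genes in members. They were -0.178, -0.265 and 0.175 over 7516 genes in low-mitochondrial barcodes. The positive value on each side was for SOD1-Veh with SOD1-Nec, so an effect of the replicate number is not excluded. A replicate block was run as an alternative. Shares were compared by exact permutation.

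Genes named were the 10 largest called changes each way shared by 6 libraries with at least 100 UMIs, up to 3 per list by p, up to 4 each way within a class, up to 8 each way between groups (4 by p with fewer than 10 calls), up to 4 each way for differences of contrasts, and some genes looked up in all cases. Others were named after their values were seen: the members of lists that complete a small count or give a list's extremes, and marker genes. In simulated data 67.4% of 2-fold and 100% of 4-fold changes were recovered between members and low-mitochondrial barcodes (3769 genes, 8 false calls), and 25.3% and 90% between genotypes (1857 genes, 2 false calls). The simulation gave all genes the same fixed dispersion and all libraries a single mean profile. It changed a minority of genes, balanced up and down. Recovery and false calls in the real comparisons may therefore differ. Alternatives varied the limits of 20% and 200 genes, the filter, the scaling, doublets, depth, class and each library. Leaving out clusters A and B, using them alone and leaving out haemoglobin were chosen after seeing the data. A few genes of the lists are not reported here by name.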

Additional observations from a re-analysis of the deposited data

Results flagged for a closer look

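The contrast of high over low-mitochondrial barcodes differed between groups for 14 named results, by a test of the difference itself in edgeR. Values are differences of log2 fold changes with standard errors, and levels are normalised CPM of the 2 libraries of a group.

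For SOD1-Veh minus WT-Veh, 4 genes of skeletal muscle or highly expressed there were negative: Pvalb (-6.30 ± 0.54, adjusted p = 6.09e-28), Tpm1 (-3.50 ± 0.49), Acta1 (-8.85 ± 1.46) and Aldoa (-2.21 ± 0.38). Pvalb had 113 and 415 CPM in members and 951 and 2262 CPM in low-mitochondrial barcodes of SOD1-Veh, against 197 and 196 CPM in members and 15.6 and 15.5 CPM in low-mitochondrial barcodes of WT-Veh. Acta1 had 2263 and 4474 CPM in low-mitochondrial barcodes of SOD1-Veh and 0 CPM in those of WT-Veh, so its fitted size is no bound. Skeletal muscle-like barcodes numbered 17 and 57 in SOD1-Veh and 0 and 1 in WT-Veh, and their part in these values was not tested. Positive were Meg3 (1.66 ± 0.39), Ahi1 (1.97 ± 0.47), Unc80 (2.96 ± 0.74) and Rbfox3 (2.58 ± 0.66), all higher in low-mitochondrial barcodes of WT-Veh 2 than in those of any other library. This library held 174 of the 294 neuron-like barcodes, and the part of that in the 4 values was not tested. Calls numbered 3 without WT-Veh 2, 27 without WT-Veh 1, 9 without SOD1-Veh 1 and 4 without SOD1-Veh 2.

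For SOD1-Nec minus SOD1-Veh, Pvalb (4.75 ± 0.58), S100a8 (2.27 ± 0.35), Gm26924 (2.22 ± 0.34) and Retnlg (3.68 ± 0.57) were positive, and Nnat (-2.22) and Mt3 (-1.33) negative. S100a8 had 2054 and 814 CPM in members and 15125 and 20609 CPM in low-mitochondrial barcodes of SOD1-Nec, against 135 and 387 CPM in members and 15980 and 13769 CPM in low-mitochondrial barcodes of SOD1-Veh. Calls numbered 2 without SOD1-Nec 1, 9 without SOD1-Veh 1 and 14 without SOD1-Veh 2. Both comparisons share the SOD1-Veh libraries.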

How the results depend on the processing

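With 2 libraries a group and a median of 338 nuclear UMIs per member, small changes between groups could not be detected, and calls between groups depended on the settings. The cause of each change below was not tested, except that fewer barcodes or genes enter some settings by construction.

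Members against low-mitochondrial barcodes gave 1529 calls with at least 400 genes, 701 after thinning to 200 UMIs, 442 without clusters A and B, 112 after matching and 4935 with no filter, against 2577. Genotype calls (6) became 29 with at least 100 genes, 1 with at least 400, 2 in DESeq2, 34 at a limit of 10%, 15 with no filter and 6 to 19 leaving out a library. Treatment calls (12) became 132, 0, 4, 67 and 27 in the same settings, 6 above 30%, 7 in clusters A and B alone, 7 without haemoglobin genes and 5 to 47 leaving out a library. With a replicate block, genotype calls were 11 and treatment calls 26, including all 6 and all 12, and the difference in member share had exact permutation p = 0.5. Differences of the contrast for genotype (17) became 31 with at least 100 genes, 3 with at least 400, 2 in DESeq2, 1 at 10%, 5 above 30%, 7 with no filter and 3 to 27 leaving out a library. Those for treatment (34) became 105, 8 and 9 in the first 3 of these settings, 7 above 30%, 22 with no filter, 17 with clusters A and B on the high side and other clusters on the low side, and 2 to 49 leaving out a library. Calls within cluster A (17) were 0 with at least 400 genes and 3 to 23 leaving out a library. Class calls (14) were 7 with TMM factors and 9 at 10%. Within classes, the genotype gave 0 to 1 calls leaving out a library. The genotype difference in member share was -6.10 percentage points with at least 400 genes.

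Signs turned without clusters A and B for Atp5g3 (-0.19), Atp5h (-0.040), Timm8b (-0.17), Hspa9 (-0.37), Tomm7 (-0.12), Slirp (-0.43), Vdac1 (-0.19), Rpl37 (-0.0037), Malat1 (0.19) and Snhg11 (1.23). At 10% they turned for Malat1 (0.0091), Snhg11 (1.44) and the neuron-like class (1.85, and 1.60 with TMM factors). They turned after matching for Ndufa12 (-0.024), Apoe (-0.016) and Meg3 (-1.78), which was also -0.98 with at least 400 genes and -0.61 after thinning. For the treatment, S100a9 (-0.89) and S100a8 (-0.17) turned with at least 400 genes and Camp above 30% (-0.30) and in clusters A and B alone (-0.065). The S100a8 difference of the contrast turned with at least 400 genes (-0.47).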

Other observations

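Ribosomal RNA made up 66.9% and 61.8% of the mitochondrial UMIs of members in SOD1-Nec, 61.0% and 58.8% in SOD1-Veh and 48.8% and 51.5% in WT-Veh. In low-mitochondrial barcodes it made up 72.9% and 69.5% in SOD1-Nec, 71.1% and 69.9% in SOD1-Veh and 65.4% and 64.4% in WT-Veh. On both sides the WT-Veh libraries held the 2 lowest values. These shares come from the counts that chose the members and were not tested.

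The long non-coding RNA 2810433D01Rik followed the library number more than the group. In members it had 258, 188 and 140 CPM in the libraries numbered 1 of SOD1-Nec, SOD1-Veh and WT-Veh, and 946, 1282 and 1374 CPM in those numbered 2. The low-mitochondrial barcodes of the same libraries had 15.3, 11.1 and 15.6 CPM in those numbered 1 and 86.2, 108 and 86.1 CPM in those numbered 2. The tables numbered 1 and 2 also list different numbers of genes.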
